A study of Mus musculus with 9 samples.

Results

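Tubulin isotypes were followed across 3 kinds of mouse neural cells on 9 Affymetrix arrays. Of 10 isotype genes, chosen by name as the alpha and beta tubulins of interest (Tubb3, Tubb2a, Tubb2b, Tubb4a, Tubb5, Tubb6, Tuba1a, Tuba1b, Tuba1c and Tuba4a), 8 were measured by at least 1 probe set that the array's annotation gives to that gene and no other. The 18193 genes tested include these 8. Tuba1b and Tuba1c share every probe set of theirs with the symbol of a pseudogene, and their values are given separately. The 8 genes have 13 probe sets between them, and each gene was represented by its brightest probe set, judged by the mean of all 9 arrays. The only such probe set of Tuba1a has a name ending in _x_at, and the brightest of Tubb2a in _s_at. Whether either also responds to RNA of other tubulins was not tested.

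The arrays formed 3 groups of 3, lettered A, B and C in each group and named biological replicas in the labels. Neurons were primary cultures from mouse cortex, kept in Neurobasal with B27, glutamine, antibiotics and AraC, a compound toxic to dividing cells. NSCs were native neural stem cells, grown in DMEM/F12 with N2, EGF, bFGF, heparin, glutamine and antibiotics. The yNSCs were grown in that same medium and were neural stem-like cells that the study obtained from cortical neurons carrying lentiviral, doxycycline-inducible wild-type YAP with its rtTA activator. YAP is a transcriptional coactivator held back by the Hippo pathway. The strain and age of the animals and the passage of the arrayed cells are not given in the labels. Nothing says whether the groups share animals, so p-values measure the spread between these arrays, which may in part be technical.

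Microtubules are polymers of alpha and beta tubulin dimers. Each subunit is encoded by several genes, the isotypes, whose proteins differ mostly in the C-terminal tails that stick out from the microtubule surface. Neurons build long-lived microtubules in axons and dendrites, and dividing progenitors rebuild theirs into a spindle at each mitosis. The tails also carry the modifications of tubulin: removal and return of the last tyrosine of alpha tubulin, glutamylation and glycylation.

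Group labels were checked against fixed marker genes. The mean of 7 neuron markers lay between 11.21 and 11.25 on the 3 neuron arrays, and between 5.80 and 5.98 on the 6 NSC and yNSC arrays. The mean of 5 proliferation markers lay between 6.95 and 7.18 in neurons, 10.86 and 11.03 in NSCs, and 10.41 and 10.57 in yNSCs. Neural stem cell markers lay between 8.64 and 8.75, 10.02 and 10.29, and 9.75 and 9.80, in that order. The neuron arrays also held glial signal: the mean of 9 microglia markers was 8.36 to 8.91 there, against 3.88 to 4.002 in NSCs and 5.04 to 5.18 in yNSCs. Array medians lay between 4.90 and 5.01. NSC replicate A was the least typical array of its group: 162 of its genes differed over 2-fold from the average of replicates B and C, and no other array had more than 30 such genes.

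The isotypes did not move as 1 family. Neuronal Tubb3 was 84.3-fold lower in yNSCs than in the neurons and Tubb4a 6.87-fold lower, whereas Tubb6 was 53.3-fold higher. The abundant brain isotypes Tubb2a, Tubb2b and Tuba1a were lower by 1.69-fold to 1.94-fold. Native NSCs differed from neurons in the same directions. Tuba4a parted the stem cell groups: it was 27.3-fold lower than in neurons in NSCs, but 1.54-fold lower in yNSCs. In counts, 1 of the 8 measured isotypes was higher and 7 were lower in yNSCs than in neurons, with a median log2 difference of -0.77 (Tubb5 and Tubb6 each have a dimmer probe set that ran the other way). Over all genes tested the share higher was 34.6% and the share lower 27.9% in that comparison, around a median of -0.01. In NSCs against neurons 1 was higher and 7 were lower, with a median of -0.93, where 33.3% of all genes were higher and 34.1% lower around a median of -0.07. Those comparisons share the neuron arrays. In yNSCs against NSCs 4 isotypes were higher, none was lower and 4 did not pass the test (21.3% of all genes were higher and 18.0% lower). At an unadjusted p under 0.05, 1 isotype, Tubb2b, was lower in that comparison.

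**Figure D1:**
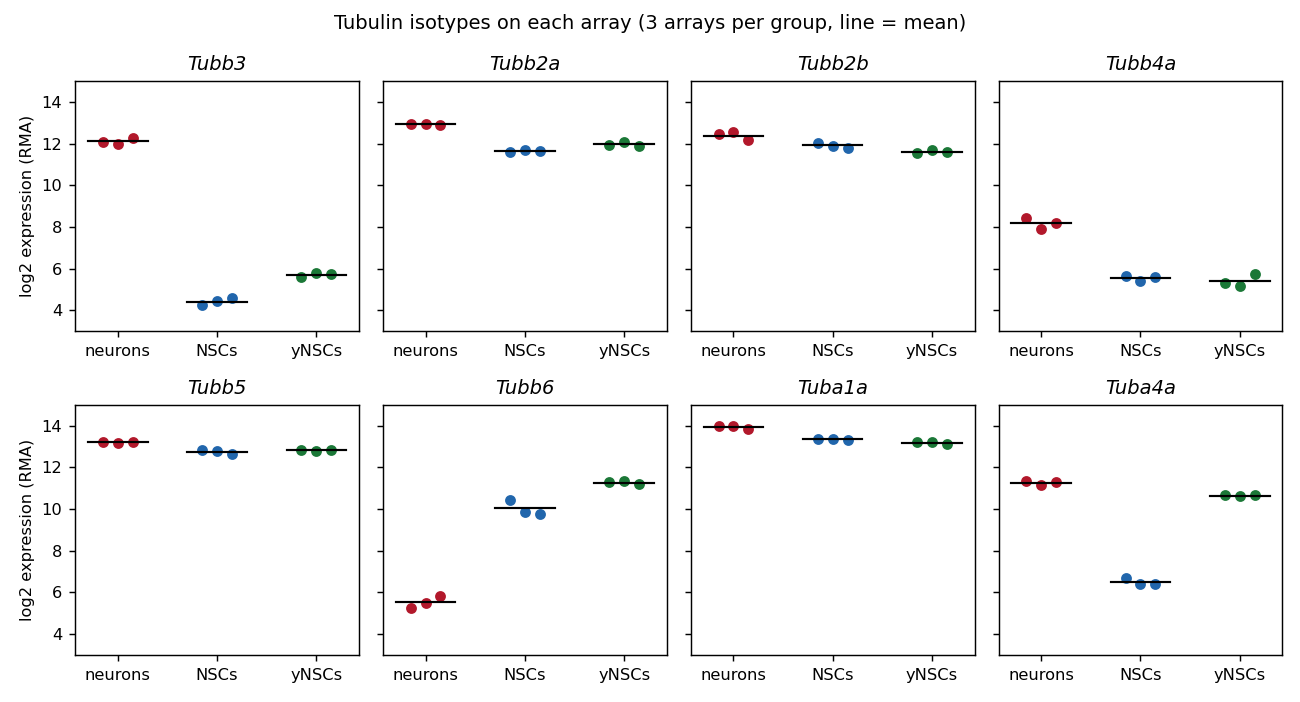
Log2 expression (RMA) of the 8 measured isotypes on each of the 9 arrays, 3 per group, with the group mean as a line. Tubb3 and Tubb4a are high in neurons only, Tubb6 is lowest in neurons, and Tuba4a is low in NSCs only.

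Levels are log2 values as deposited. A difference is the level in the group named first less that in the group named after it, with the moderated standard error from limma as SE. Adjusted p-values are limma's moderated two-sided test with Benjamini-Hochberg adjustment over all 18193 genes, and "passed" means an adjusted p under 0.05. With 3 arrays against 3, an exact permutation test could not go below 0.1, and the number of arrays limits the precision. In bulk RNA, fewer cells of a type and less of an RNA per cell cannot be told apart. Each probe set responds to its target in its own way, so levels are compared between groups and not between isotypes.

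Promoter sequences of 3 isotypes are shown: Tubb3, Tuba4a and Tubb5. Tubb3 and Tuba4a were both high in neurons and parted in yNSCs. By its brightest probe set Tubb5 had the smallest difference from neurons of the 8 measured isotypes in both stem cell groups. In NSCs that of Tubb2b was nearly the same (-0.47 against -0.46). A dimmer Tubb5 probe set ran the other way, with differences of 0.89 in yNSCs and 1.44 in NSCs. Each window runs from 250 bases before to 50 bases after the annotated start in RefSeq, build GRCm38.p6, and is written along the gene. They lie at chr8:123411303-123411602 on the plus strand for Tubb3, chr1:75219245-75219544 on the minus strand for Tuba4a, and chr17:35838252-35838551 on the minus strand for Tubb5. The Tuba4a window lies inside the annotated span of its gene, chr1:75214972-75221261. The start it uses is therefore not the outer end of that span. Capitals mark GGGCGG (the GC box) and CCAAT (the CCAAT box), on either strand.
Tubb3: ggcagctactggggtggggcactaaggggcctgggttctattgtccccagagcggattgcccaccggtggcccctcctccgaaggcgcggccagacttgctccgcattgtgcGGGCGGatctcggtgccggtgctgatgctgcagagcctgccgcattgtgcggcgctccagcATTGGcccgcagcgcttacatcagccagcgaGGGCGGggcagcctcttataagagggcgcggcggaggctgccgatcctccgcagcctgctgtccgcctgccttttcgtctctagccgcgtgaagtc
Tuba4a: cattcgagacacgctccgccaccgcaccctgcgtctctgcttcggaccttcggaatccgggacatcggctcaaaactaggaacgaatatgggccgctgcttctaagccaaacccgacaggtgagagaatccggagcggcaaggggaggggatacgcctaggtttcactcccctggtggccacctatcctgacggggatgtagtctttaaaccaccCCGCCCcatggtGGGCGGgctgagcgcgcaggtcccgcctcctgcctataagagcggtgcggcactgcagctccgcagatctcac
Tubb5: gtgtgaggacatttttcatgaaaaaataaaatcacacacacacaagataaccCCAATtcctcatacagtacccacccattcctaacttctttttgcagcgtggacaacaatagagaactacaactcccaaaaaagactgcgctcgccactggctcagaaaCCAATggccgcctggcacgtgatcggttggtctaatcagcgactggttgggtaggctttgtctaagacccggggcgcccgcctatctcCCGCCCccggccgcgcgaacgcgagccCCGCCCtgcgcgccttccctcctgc
The Tubb3 window holds 2 GC boxes and 1 CCAAT box, the Tuba4a window 2 GC boxes and no CCAAT box, and the Tubb5 window 2 of each. Windows of 8 of the 10 isotypes were searched, and Tubb2b and Tubb6 were not among them. GC boxes were found in 6 of those 8, against 35.7% of all 32851 mouse windows, and CCAAT boxes in 4, against 37.4%. The core of the site read by TEAD, the DNA-binding partner of YAP, is GGAATG. It was found in the Tubb5 window alone of the 8, and in 14.7% of all windows. None of the 8 windows held TGANTCA, the AP-1 site, which 7.81% of all windows hold. The TATA box TATAAA was found in Tubb2a alone (13.6% of all windows), and CANNTG, the E-box, in 6 of the 8 (72.3% of all windows). GC content was 67.3% for Tubb3, 62.0% for Tuba4a and 55.0% for Tubb5, against a median of 52.7% over all windows. These matches are letters in a window and not measured binding.

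Beta isotypes are described first. Tubb3, the neuronal class III beta tubulin (chr8:123411553-123422015 in GRCm38.p6), read 12.08, 11.97 and 12.26 in neuron replicates A, B and C. It read 4.25, 4.43 and 4.59 in NSCs and 5.58, 5.81 and 5.73 in yNSCs. All 3 groups were separate, with neurons highest, yNSCs next and NSCs lowest. The difference was -6.40 in yNSCs against neurons (SE 0.122, adjusted p = 2.37e-12) and -7.68 in NSCs against neurons (adjusted p = 4.80e-13). In yNSCs Tubb3 was 2.43-fold higher than in NSCs, a difference of 1.28 (adjusted p = 4.65e-06). The neuron marker list fell alongside it, with all 7 members lower in yNSCs and in NSCs than in neurons. Against neurons 27.9% of all genes were lower in yNSCs and 34.1% in NSCs. In yNSCs against NSCs 2 of those 7 markers were higher, 2 lower and 3 not called, with a list median of -0.22. All genes gave 21.3% higher and 18.0% lower in that comparison. Over the 9 arrays the profiles closest to that of Tubb3, by root mean square difference after each was centred, were Plppr4 (0.193 log2 units), Chgb (0.263) and Elmod1 (0.296).

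Tubb4a, a beta tubulin of mature neurons and myelinating oligodendrocytes (chr17:57080061-57087600), read 8.44, 7.92 and 8.19 in neurons. It read 5.64, 5.43 and 5.59 in NSCs, and 5.29, 5.17 and 5.75 in yNSCs. Neurons stood above every other array, and the stem cell groups overlapped. Its difference was -2.78 in yNSCs against neurons (SE 0.166, adjusted p = 2.04e-08) and -2.63 in NSCs against neurons (adjusted p = 3.13e-08), which are 6.87-fold and 6.19-fold lower. Between yNSCs and NSCs it was -0.15 with a 95% interval of -0.513 to 0.213 (adjusted p = 0.527). Oligodendrocyte lineage markers had array means of 6.51 to 6.58 in neurons, 6.12 to 6.22 in NSCs and 5.21 to 5.43 in yNSCs, with Mog, a defining myelin gene, near background (below the mean lower quartile of the arrays) in every group. Of the 7 measured genes of that list, 1 was higher and 4 were lower in yNSCs than in neurons, and 2 and 4 in NSCs. All genes gave 34.6% higher and 27.9% lower in yNSCs, and 33.3% and 34.1% in NSCs. Mbp, a myelin protein gene, read 6.87 to 7.14 in neurons, 4.48 to 4.73 in NSCs and 4.31 to 4.52 in yNSCs. Its differences against neurons were -2.55 in yNSCs and -2.37 in NSCs, and those of Sox10, a factor of the lineage, were -1.61 and -1.40. Pdgfra was lower too (-5.57 and -2.46). Olig2, another factor of the lineage, was higher (1.97 and 2.70), and Cspg4 was lower in yNSCs (-0.63) and higher in NSCs (1.57). Their part in the Tubb4a values was not tested. Clvs2 (0.158), Synm (0.175) and Wipf3 (0.179) had the closest centred profiles.

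Tubb2a and Tubb2b are neighbouring genes on chromosome 13, 49.0 kb apart, and both are major beta tubulins of the developing brain. Tubb2a (chr13:34074278-34078008) read 12.96, 12.92 and 12.87 in neurons, 11.61, 11.70 and 11.63 in NSCs, and 11.92, 12.07 and 11.89 in yNSCs. The groups did not overlap and followed the order of Tubb3, over a much narrower range. The difference was -0.96 in yNSCs against neurons (SE 0.0955, adjusted p = 2.28e-06), -1.27 in NSCs against neurons (adjusted p = 1.58e-07) and 0.31 in yNSCs against NSCs (adjusted p = 0.0205). That last call was lost without NSC replicate C (adjusted p = 0.0552) or yNSC replicate B (adjusted p = 0.100). A dimmer Tubb2a probe set read 8.23, 7.99 and 7.75 in neurons, 6.54, 5.92 and 6.67 in NSCs, and 7.53, 7.52 and 7.52 in yNSCs. It gave the same order, with differences of -0.47 (adjusted p over all probe sets = 0.0444), -1.61 and 1.15.

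Tubb2b (chr13:34127008-34130354) read 12.45, 12.54 and 12.15 in neurons, 12.04, 11.89 and 11.81 in NSCs, and 11.54, 11.68 and 11.58 in yNSCs. Here yNSCs and not NSCs were lowest, and no groups overlapped. The difference was -0.78 in yNSCs against neurons (SE 0.121, adjusted p = 1.07e-04) and -0.47 in NSCs against neurons (adjusted p = 0.00448). In yNSCs against NSCs it was -0.31, with a 95% interval of -0.577 to -0.0498, and missed the threshold (adjusted p = 0.0586). A probe set that the annotation gives jointly to Tubb2b and the pseudogene Tubb2a-ps2 ran the other way in that comparison. It read 12.15, 12.02 and 12.05 in neurons, 10.43, 10.09 and 10.44 in NSCs, and 10.83, 10.80 and 11.18 in yNSCs. There yNSCs were higher than NSCs by 0.62 (adjusted p over all probe sets = 0.00364), so the order of Tubb2b between the stem cell groups depends on the probe set.

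Tubb5, the beta tubulin of most dividing cells and of neural progenitors (chr17:35833920-35838301), read 13.22, 13.17 and 13.23 in neurons. It read 12.84, 12.77 and 12.64 in NSCs, and 12.84, 12.77 and 12.82 in yNSCs. Neurons were highest, and the stem cell groups overlapped almost fully. The difference was -0.40 in yNSCs against neurons (SE 0.0949, adjusted p = 0.00292) and -0.46 in NSCs against neurons (adjusted p = 0.00104), or 1.32-fold and 1.37-fold lower. Between yNSCs and NSCs it was 0.06, with a 95% interval of -0.148 to 0.268. The direction against neurons rests on the choice of probe set. A dimmer Tubb5 probe set read 9.48, 9.52 and 9.34 in neurons, 11.20, 10.79 and 10.66 in NSCs, and 10.42, 10.27 and 10.32 in yNSCs. By that probe set Tubb5 was higher than in neurons by 0.89 in yNSCs (adjusted p over all probe sets = 1.26e-04) and by 1.44 in NSCs (adjusted p = 1.80e-06), and lower in yNSCs than in NSCs (-0.55, adjusted p = 0.00738). The deposited values alone do not settle which of these readings holds for the gene.

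Tubb6, the class V beta tubulin found in many non-neuronal tissues, had the largest difference upward of the 8 isotypes against neurons. It read 5.24, 5.51 and 5.83 in neurons, 10.45, 9.86 and 9.78 in NSCs, and 11.28, 11.33 and 11.18 in yNSCs. The groups were separate, and the order was the reverse of a neuronal gene, except that yNSCs and not NSCs were farthest from neurons. The difference was 5.74 in yNSCs against neurons (SE 0.184, adjusted p = 9.32e-11) and 4.50 in NSCs against neurons (adjusted p = 6.60e-10), or 53.3-fold and 22.7-fold higher. In yNSCs it was 2.35-fold above NSCs (difference 1.23, adjusted p = 1.83e-04). NSC replicate A read highest of its group, and without it the differences were 4.29 in NSCs against neurons and 1.44 in yNSCs against NSCs. A dim Tubb6 probe set did not show the rise: its readings lay between 5.60 and 5.78 in neurons, 4.86 and 4.89 in NSCs, and 5.37 and 5.45 in yNSCs. By that probe set Tubb6 was lower than in neurons, with differences of -0.29 in yNSCs (adjusted p over all probe sets = 0.0207) and -0.83 in NSCs (adjusted p = 1.06e-05). The closest centred profiles to the brighter probe set were Igfbp3 (0.271), a secreted binding protein of insulin-like growth factors, Prrx1 (0.297), a homeobox factor of mesenchyme, and Cd109 (0.311), a surface protein. Mural cell and fibroblast markers had array means of 4.85 to 5.002 in neurons, 5.17 to 5.23 in NSCs and 5.58 to 5.68 in yNSCs, with Col3a1 and Lum near background in neurons and in yNSCs. In yNSCs against neurons 3 of these 9 markers were higher and 5 were lower, where all genes gave 34.6% and 27.9%. Tagln and Acta2, genes of contractile actin filaments, had the group order of Tubb6. Tagln had means of 5.72 in neurons, 7.14 in NSCs and 11.93 in yNSCs, with a difference of 6.21 in yNSCs against neurons. Acta2 read 5.48 to 6.24, 8.81 to 9.50 and 10.67 to 10.92, with a difference of 4.83. The 5 lower markers had differences from -0.35 for Col1a2 to -3.11 for Dcn. The part of such cells in the Tubb6 values was not tested.

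Among the alpha isotypes, Tuba1a (chr15:98949847-98953501), the main alpha tubulin of newborn neurons, read 13.96, 13.98 and 13.86 in neurons. It read 13.36, 13.34 and 13.31 in NSCs, and 13.20, 13.19 and 13.13 in yNSCs. The spread within groups was small and no groups overlapped. The difference was -0.76 in yNSCs against neurons (SE 0.0909, adjusted p = 1.17e-05) and -0.60 in NSCs against neurons (adjusted p = 8.99e-05). Between yNSCs and NSCs it was -0.16, with a 95% interval of -0.362 to 0.0356 (adjusted p = 0.187). The highest value on any array was 14.46, so Tuba1a sat near the top of the measured range in every group. Its nearest profiles were Dcaf7 (0.0431), Herc2 (0.0629) and Myo5a (0.0695).

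Tuba4a (chr1:75214972-75221261) encodes an alpha tubulin made without the C-terminal tyrosine that other alpha tubulins carry. It read 11.36, 11.13 and 11.31 in neurons, 6.68, 6.41 and 6.40 in NSCs, and 10.65, 10.62 and 10.65 in yNSCs. The yNSC arrays lay just under the neurons and far above every NSC array, with no overlap between groups. The difference was -0.63 in yNSCs against neurons (SE 0.110, adjusted p = 3.08e-04), -4.77 in NSCs against neurons (adjusted p = 6.84e-12) and 4.14 in yNSCs against NSCs (adjusted p = 2.25e-10), the last being 17.7-fold. A second probe set gave the same picture, with differences of -0.73, -4.88 and 4.15 in that order. It read 9.84, 9.62 and 9.85 in neurons, 5.55, 4.54 and 4.58 in NSCs, and 8.97, 9.09 and 9.05 in yNSCs. Readings of the remaining probe set lay between 5.39 and 6.15 on all 9 arrays, and it passed the test in no comparison (differences of -0.02, -0.22 and 0.21).

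Glial markers also differed between the groups, in part unlike Tuba4a. In yNSCs against NSCs 4 of 7 astrocyte markers were higher and 1 was lower, where all genes gave 21.3% and 18.0%. The astrocyte list had array means of 9.46 to 9.60 in neurons, 7.25 to 7.98 in NSCs and 9.31 to 9.50 in yNSCs. Gfap, the intermediate filament of astrocytes, was higher in yNSCs than in NSCs by 5.42, and the water channel Aqp4 by 4.83. Aqp4 read 3.40 in NSC replicate A, against 5.62 and 5.90 in the other NSC arrays, and without that array its difference was 4.04. Aldoc was the astrocyte marker lower in yNSCs than in NSCs (-1.20). Aldh1l1 was higher than in neurons in both stem cell groups (1.64 in yNSCs and 1.68 in NSCs). No astrocyte marker had a group mean near background. Of 9 microglia markers, 6 were higher in yNSCs than in NSCs and none lower, and all 9 were lower than in neurons in both stem cell groups. Against neurons 27.9% of all genes were lower in yNSCs and 34.1% in NSCs. Array means of that list were 8.36 to 8.91 in neurons, 3.88 to 4.002 in NSCs and 5.04 to 5.18 in yNSCs. In NSCs C1qb and Aif1 were near background, and in yNSCs Aif1 was. The profile closest to Tuba4a over the 9 arrays was that of Cd68 (0.279), a lysosomal protein that is also on the microglia list, followed by Apoe (0.299), the main lipoprotein of the brain, and Amy1 (0.305), an amylase. Cd68 differed by 4.20 between yNSCs and NSCs, and the other 8 genes of that list by 1.60 (Tyrobp) down to 0.04 (Cx3cr1), with C1qb at 1.36, C1qa at 1.21 and Csf1r at 1.16. The part of glial cells in the Tuba4a values was not tested.

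**Figure D2:**
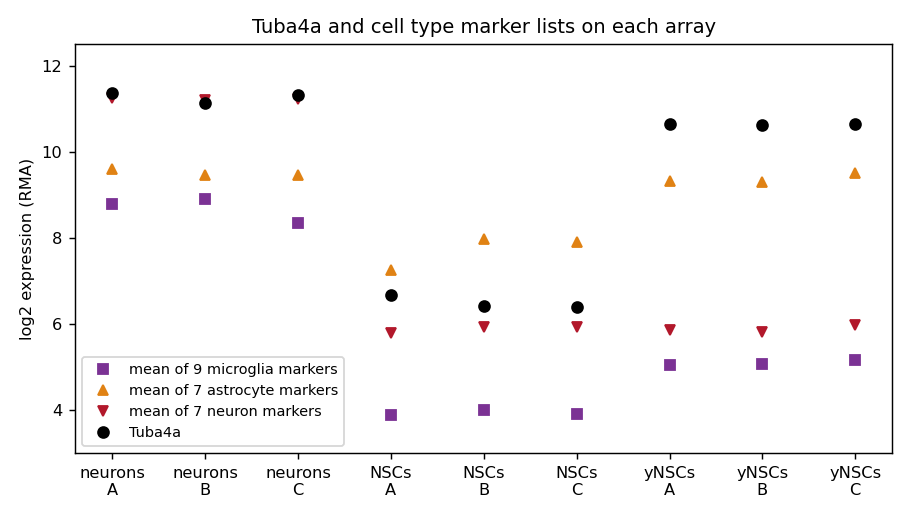
Log2 expression (RMA) of Tuba4a and the mean of 3 marker lists on each array, 3 arrays per group. Tuba4a reads 10.62 to 10.65 in yNSCs and 6.40 to 6.68 in NSCs, while the neuron list is low in both and the astrocyte list is higher in yNSCs.

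Tuba1b and Tuba1c, alpha tubulins of most cell types, lie beside Tuba1a on chromosome 15, at 15.5 kb and 76.4 kb from it. Readings for them rest on probe sets that also name a pseudogene, so RNA of the gene and the pseudogene cannot be told apart. The probe set of Tuba1b and Gm5620 read 13.60, 13.60 and 13.63 in neurons, 13.73, 13.59 and 13.47 in NSCs, and 13.52, 13.42 and 13.43 in yNSCs. It passed the test in no comparison, with differences of -0.15 in yNSCs against neurons (SE 0.103), -0.01 in NSCs against neurons and -0.14 in yNSCs against NSCs. The brighter probe set of Tuba1c and Gm6682 read 3.77, 4.24 and 3.98 in neurons, 6.59, 6.33 and 6.45 in NSCs, and 7.96, 7.84 and 7.94 in yNSCs. The groups were well apart, in the order of Tubb6. Its differences were 3.92 in yNSCs against neurons (SE 0.131, adjusted p over all probe sets = 3.28e-10), 2.46 in NSCs against neurons (adjusted p = 1.45e-08) and 1.46 in yNSCs against NSCs (adjusted p = 4.54e-06). The dimmer one, near background in neurons, gave 2.95, 1.48 and 1.46. A probe set naming Gm6682 and Tuba1a was dim, with readings between 3.31 and 4.60. With the pseudogene symbols set aside, a choice made after the data were seen, all 10 isotypes were measured. Then 2 were higher in yNSCs than in neurons and 2 in NSCs than in neurons, where 34.8% and 33.5% of all genes were higher.

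**Figure D3:**
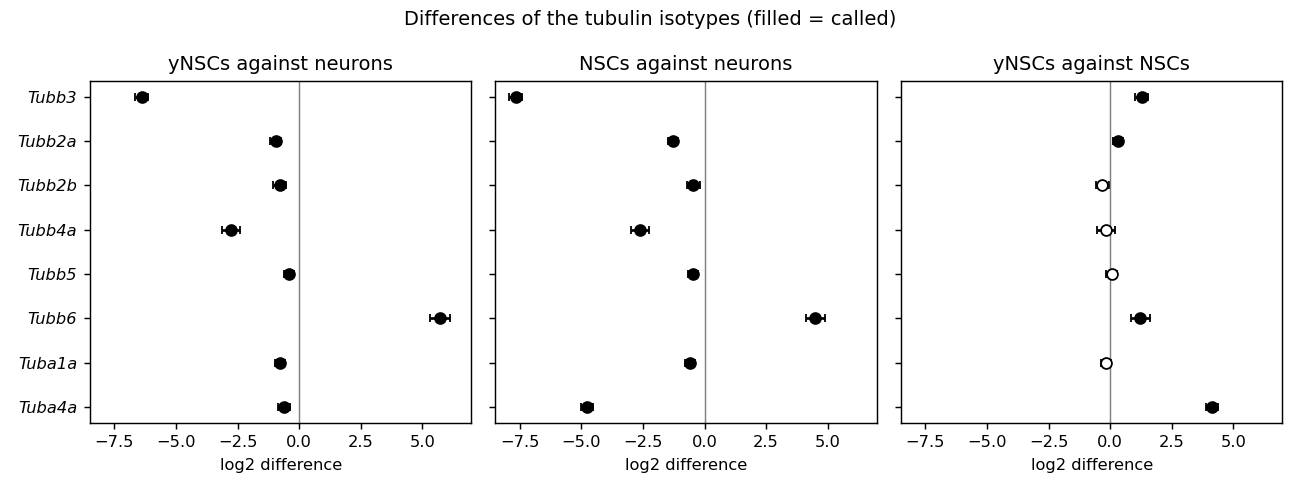
Log2 difference of each measured isotype in the 3 comparisons, with bars for the 95% interval and filled points for an adjusted p under 0.05. Against neurons Tubb6 lies at 5.74 and 4.50 and the other 7 isotypes lie below 0, and Tuba4a stands at 4.14 in yNSCs against NSCs.

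**Figure D4:**
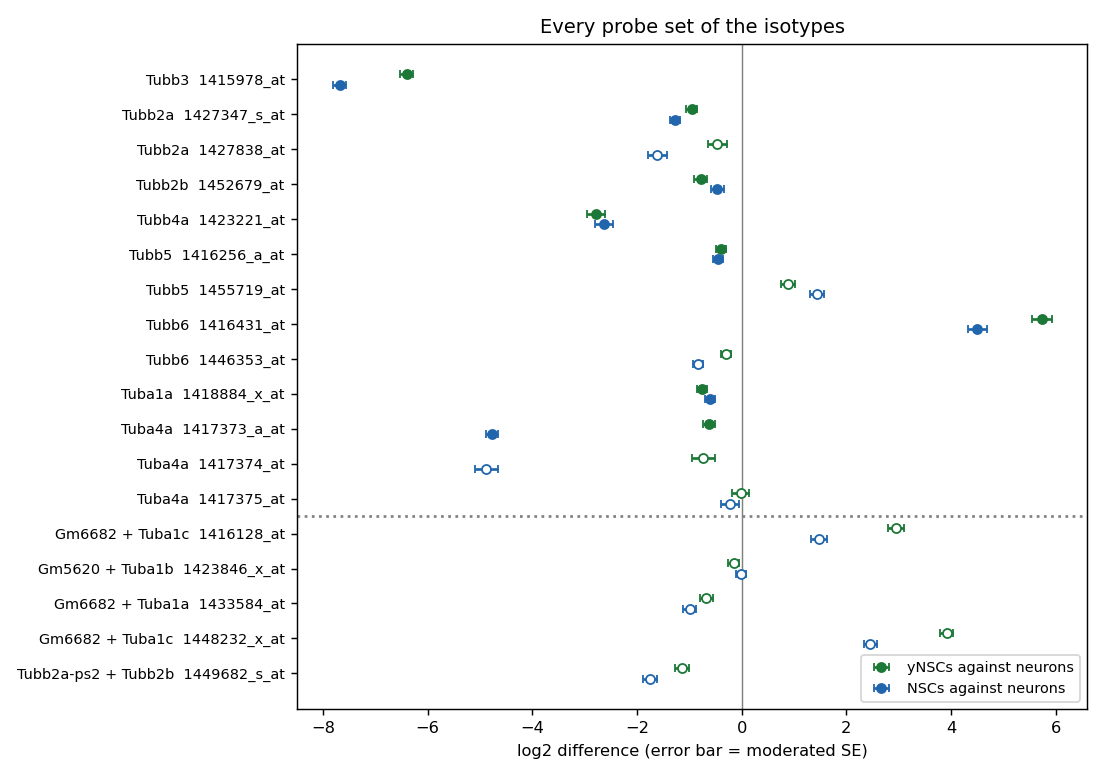
Log2 difference against neurons of each probe set of the isotypes, with the moderated SE as bars, yNSCs in green and NSCs in blue. Filled points stand for the gene, and probe sets under the dotted line name a pseudogene too; the second probe sets of Tubb5 and Tubb6 lie on the other side of 0 from the chosen ones.

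The machinery that makes and modifies tubulin was read from fixed lists. Of 22 genes for tubulin folding, 16 were higher and none was lower in yNSCs than in neurons (6 not called, median 0.61), and 12 were higher and 3 lower in NSCs than in neurons. With each array quantile normalized again, 1 was lower in yNSCs, where 27.5% of all genes were. By limma none was lower in yNSCs at an unadjusted p under 0.05 either. Over all genes the shares were 34.6% higher and 27.9% lower in yNSCs and 33.3% and 34.1% in NSCs. All 8 measured subunits of the CCT chaperonin, which folds tubulin and actin, were higher in both groups than in neurons: Cct8 by 1.16 in yNSCs and 0.74 in NSCs, Cct4 by 0.88 and 1.01, and Cct5 by 0.87 and 0.96. Prefoldin subunits, which hand new chains to CCT, differed in their pattern. Pfdn1 was higher than in neurons by 1.30 in yNSCs (adjusted p = 1.08e-06), and its difference in NSCs was 0.26 (adjusted p = 0.0689). Its difference between yNSCs and NSCs was 1.03 (adjusted p = 2.34e-05). Pfdn4, Pfdn2 and Pfdn6 were also higher in yNSCs than in NSCs (0.84, 0.55 and 0.30), the call for Pfdn6 being lost without any 1 of NSC replicates A and B and the yNSC replicates. Pfdn5 differed by 0.24 (adjusted p = 0.167). Vbp1, another subunit, was higher than in neurons in both groups and lower in yNSCs than in NSCs (-0.33, adjusted p = 0.0133), a call lost without NSC replicate C or yNSC replicate C. Ttc5, the factor that marks tubulin mRNA for decay when free dimers are in excess, was higher than in neurons by 0.53 in yNSCs (adjusted p = 5.59e-04). Its difference in NSCs was 0.21 (adjusted p = 0.0821).

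Genes of microtubule nucleation were mostly higher than in neurons. Of 11 genes of the gamma tubulin ring complex and its anchors, 7 were higher and 1 was lower in yNSCs than in neurons, and 9 and 1 in NSCs. Over all genes the shares were 34.6% higher and 27.9% lower in yNSCs, and 33.3% and 34.1% in NSCs. Nedd1, which targets the complex to the spindle, was higher by 2.50 in yNSCs and 2.39 in NSCs, and the centrosomal Cdk5rap2 by 2.06 and 2.22. Akap9, an anchor at the Golgi and centrosome, was the lower one (-1.28 and -1.16). Among 8 other tubulin genes measured, the gamma tubulins moved apart: Tubg1, the form of dividing cells, was higher by 1.18 in yNSCs and 1.51 in NSCs, and Tubg2, the form enriched in brain, was lower (-2.23 and -1.54). The Tubg2 mean in yNSCs, 3.09, was near background, so the size of its difference there is uncertain. Tuba8, an unusual alpha tubulin, read 4.74, 4.38 and 4.52 in neurons, 3.98, 4.46 and 4.20 in NSCs, and 6.67, 6.70 and 6.86 in yNSCs. It was higher in yNSCs by 2.20 than in neurons (adjusted p = 3.34e-08) and by 2.53 than in NSCs (adjusted p = 4.36e-08). In yNSCs against neurons 4 of these 8 genes were higher and 1 was lower, where all genes gave 34.6% and 27.9%. Without neuron replicate A, 4 were lower, where 27.6% of all genes were. Tubb4b, the beta isotype of many dividing and ciliated cells, differed from neurons by 0.40 in yNSCs (adjusted p = 0.0109) and 0.19 in NSCs (adjusted p = 0.179).

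Enzymes that act on the tubulin tails moved in both directions. Ttl, the ligase that returns the tyrosine, read 8.46, 8.05 and 8.28 in neurons, 7.08, 7.07 and 7.19 in NSCs, and 6.74, 6.75 and 6.81 in yNSCs. Its difference was -1.50 in yNSCs against neurons (adjusted p = 1.95e-07) and -1.15 in NSCs against neurons. Vash2, a carboxypeptidase that removes the tyrosine, took opposite directions: it was lower than in neurons in yNSCs (-0.78) and higher in NSCs (1.42), and differed by -2.20 in yNSCs against NSCs (adjusted p = 1.51e-07). In all, 1 of the 7 measured genes of this list was higher and 4 were lower in yNSCs than in neurons, and 1 and 3 in NSCs. All genes gave 34.6% higher and 27.9% lower in yNSCs, and 33.3% and 34.1% in NSCs. The gene higher in yNSCs was Agbl5, a deglutamylase (0.86, adjusted p = 0.0139), and its call was lost without neuron replicate C. Agtpbp1, a carboxypeptidase that shortens glutamate chains, was lower in both stem cell groups (-2.11 and -1.88).

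The list for glutamylation and glycylation had 16 measured genes. In yNSCs against neurons 6 were higher and 6 were lower, which is near the 34.6% and 27.9% of all genes. In NSCs against neurons 3 were higher and 9 were lower, where all genes gave 33.3% and 34.1%. After quantile normalization again, 2 were higher in yNSCs, where 32.7% of all genes were. Ttll1 and Nicn1, parts of the neuronal polyglutamylase complex, were lower than in neurons, with differences of -1.45 and -1.33 in yNSCs and -1.85 and -1.73 in NSCs. Ttll7, a beta tubulin polyglutamylase of neurons, was also lower (-1.50 and -0.80). Ttll4 was higher by 1.41 in yNSCs and 2.37 in NSCs. Atat1, the acetyltransferase of alpha tubulin, was lower in yNSCs (-1.45) and in NSCs (-1.79), as was the deacetylase Hdac6 (-0.71 and -0.58). Sirt2, also a tubulin deacetylase, was lower than in neurons in NSCs (-0.94, adjusted p = 1.21e-05), and its difference in yNSCs was 0.10 (adjusted p = 0.465).

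Of the genes for severing and plus-end binding, 14 were measured. In yNSCs against neurons 5 were higher and 7 were lower, where all genes gave 34.6% and 27.9%. In NSCs against neurons 6 were higher and 5 were lower, where all genes gave 33.3% and 34.1%, so the number higher in yNSCs and both numbers in NSCs were near the background. When the dimmest 40% of genes were left out, 3 were higher in yNSCs. That setting drops any dim gene of the list from the count, and 52.2% of the genes kept were higher in yNSCs. Fignl1, of the fidgetin family, read 4.66 to 5.04 in neurons and 9.19 to 9.47 in the stem cell groups. Mapre2, a plus-end protein of the EB family, was lower in yNSCs (-3.57) and in NSCs (-2.56), as was Clip1 (-2.06 and -1.89), which also binds plus ends. Spast, the severing enzyme spastin, was lower than in neurons in yNSCs (-1.29, adjusted p = 7.05e-07), and its difference in NSCs was 0.18 (adjusted p = 0.171). Fign, the related severing enzyme fidgetin, stood 2.45 above neurons in NSCs and 0.35 in yNSCs, the latter call being lost without neuron replicate A or yNSC replicate A or B. Both severing enzymes were lower in yNSCs than in NSCs, with differences of -1.47 for Spast (adjusted p = 7.80e-07) and -2.10 for Fign (adjusted p = 3.73e-08).

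**Figure D5:**
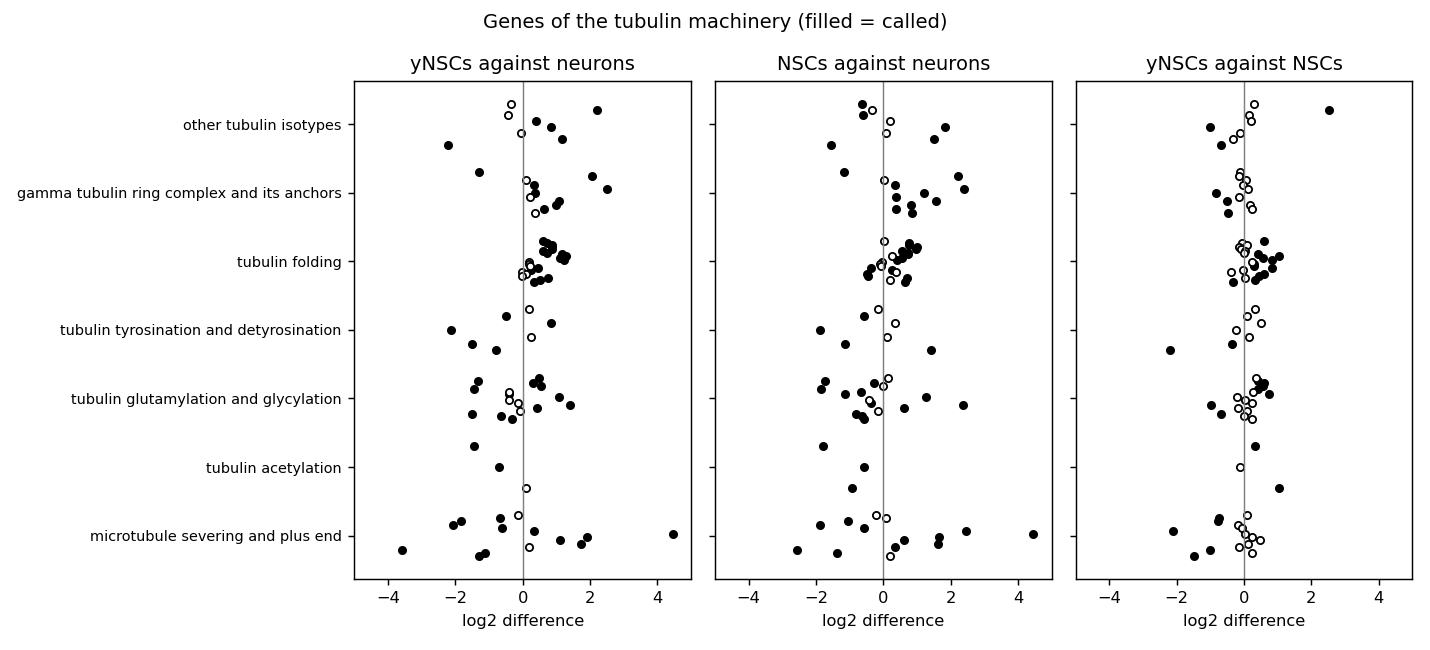
Log2 difference of each measured gene of 7 lists in the 3 comparisons, 1 point per gene, filled where the adjusted p was under 0.05. Of the 22 folding genes 16 are higher in yNSCs than in neurons and 12 in NSCs.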

How the data were processed

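Total RNA of 9 samples, extracted with Trizol, was labelled as biotinylated cRNA and hybridized to Affymetrix mouse arrays. The deposited values are log2 expression summaries per probe set that the authors computed with RMA, used here with no further scaling. The RMA version and the arrays normalized together are not given in the sources used here. RMA is a log-scale summary that compresses differences near background and near saturation.

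The arrays hold 45101 probe sets. Controls (64) were left out. Of the others, 34945 had a single symbol (34741 matched RefSeq on GRCm38.p6), 932 had several and 9160 were unnamed. The brightest probe set by mean stood for its gene, which mattered for 9010 of 18193 genes. A model with 3 group means was fitted with limma 3.58.1 in R 4.3.3 (6 residual and 5.59 prior degrees of freedom) and checked on simulated data. The isotypes and lists were chosen with earlier results of these data known. The genes named are every isotype, up to 3 called genes of largest difference per list and comparison, fixed genes such as Ttc5, Ttl, Vash2, Atat1 and Tubg1, and the 3 nearest profiles, of which a part is given. Genes outside that rule, such as Vbp1, Pfdn5, Mbp and Tagln, were chosen after their values were seen. Of the listed genes, those with no single-symbol probe set were not analysed here.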

Additional observations from a re-analysis of the deposited data

Results flagged for a closer look

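The probe sets of Tuba1c entered no comparison of single-symbol genes, because the annotation also gives them the pseudogene Gm6682, yet they carried a signal above the neuron level. The brighter one was higher than in neurons by 3.917 in yNSCs and by 2.46 in NSCs, and the dimmer one by 2.947 and 1.483. In each case all 3 arrays of the stem cell group lay above all 3 neuron arrays. No group has 4 arrays, so single arrays were not tested for standing apart.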

How the results depend on the processing

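In the comparisons with neurons each of the 8 measured isotypes except Tubb5 kept its direction under every alternative run that measured it. With the probe sets of each gene averaged, the Tubb5 difference was 0.25 in yNSCs against neurons (adjusted p = 0.0503), 0.49 in NSCs against neurons (adjusted p = 0.001022) and -0.24 in yNSCs against NSCs (adjusted p = 0.07598). Under that setting 2 isotypes were higher in NSCs than in neurons (32.8% of all genes) and 1 lower in yNSCs than in NSCs (17.3% of all genes). Without probe sets named _s_at or _x_at, Tuba1a was not measured and Tubb2a was read by its dimmer probe set. The 7 isotypes left had medians of -0.63 in yNSCs against neurons, -1.61 in NSCs against neurons and 1.15 in yNSCs against NSCs. With a 2-fold minimum, 2 isotypes were lower in yNSCs and 4 in NSCs than in neurons, where 10.9% and 12.6% of all genes were lower. Quantile normalization again gave a median of -1.06 in NSCs against neurons. With pseudogene symbols dropped, added after seeing the data, 2 isotypes were higher in each comparison with neurons, and the NSC median was -0.53 over 10 isotypes. All genes then gave 34.8% higher in yNSCs and 33.5% higher in NSCs.

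In yNSCs against NSCs, 1 isotype (Tubb2b) was lower with only the 6 arrays compared, without the 40% of genes of lowest mean, and without neuron replicate B or C. With a variance trend and robust prior 2 were (Tubb2b and Tuba1a). In these settings 18.3% to 28.1% of all genes were lower. Leaving out each array in turn gave 0 to 1 isotypes lower and 3 to 4 higher there, and 1 higher and 7 lower in each comparison with neurons. The medians then ran from -0.85 to -0.72 in yNSCs against neurons, -0.96 to -0.92 in NSCs against neurons and 0.16 to 0.21 in yNSCs against NSCs. With the replicate block the medians were -0.77, -0.93 and 0.19 and no isotype's call changed. Deviations of same-letter arrays from their group means correlated at -0.105 to 0.0998, which cannot tell whether arrays of the same letter share animals. Subtracting array medians changed no isotype's call. The causes of these shifts were not tested. Dim probe sets limit the size of differences for Tuba1c in neurons.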
